A study of Mus musculus with 2 samples.

Results

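The miR-23/27/24 clusters are a pair of short microRNA (miRNA) gene clusters in the mouse genome, each made of a miR-23, a miR-27 and a miR-24 gene. They were followed here in adrenal tissue of B6CASTF1/J mice, all female and 36 days old. The members were found by gene name, which gave 6 of the 2202 annotated miRNA genes: Mir23a, Mir27a and Mir24-2 on chromosome 8, and Mir23b, Mir27b and Mir24-1 on chromosome 13. The rule uses gene names and no level. B6CASTF1/J is a first-generation cross of a laboratory and a wild-derived strain. The study holds 1 group of 2 microRNA-seq libraries, made from total RNA and named biological replicates 1 and 2 in the labels. The animals carry different numbers there but 1 shared donor identifier, so the spread between the libraries may or may not be a spread between animals. No other tissue, age, sex or treatment was measured, and the comparisons are those between members, between clusters and between libraries.

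A miRNA is cut from a hairpin-shaped precursor, which can release a mature strand from its 5′ arm (5p) and one from its 3′ arm (3p). Bases 2 to 8 of the mature strand, the seed, do most of the pairing with target messages. The members of each cluster are thought to be cut from 1 shared primary transcript, and the clusters are copies of each other that are found across vertebrates. In mouse endothelial cells miR-23 and miR-27 promote vessel sprouting. miR-27 also restrains fat cell formation and lipid genes, miR-23a and miR-23b reduce glutaminase in human cancer cells, and miR-24 slows the cell cycle. In human adrenocortical cells miR-24 has been reported to lower CYP11B1 and CYP11B2, the enzymes of the last steps of cortisol and aldosterone synthesis.

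The chromosome 8 cluster spans 404 bases on the plus strand (mm10, GENCODE M21). Mir23a lies at chr8:84208518-84208592, Mir27a at chr8:84208672-84208758 and Mir24-2 at chr8:84208815-84208921. The cluster lies inside no annotated protein-coding gene. The end of the Mir24-2 hairpin overlaps the start of a noncoding gene, Gm26532, and the nearest protein-coding gene, Zswim4 on the minus strand, lies 1757 bases away. The chromosome 13 cluster is longer, at 792 bases, also on the plus strand. Mir23b lies at chr13:63300484-63300557, Mir27b at chr13:63300712-63300784 and Mir24-1 at chr13:63301208-63301275. All 3 lie within 2010111I01Rik, named Aopep in RefSeq, which encodes an aminopeptidase, and also within Fancc on the opposite strand. Mir23b is intronic in 2010111I01Rik, while Mir27b and Mir24-1 lie in an exon of 1 annotated transcript of that gene, of the nonsense-mediated decay type. Each Mir24 hairpin also has a second miRNA gene on the opposite strand, Mir3074-2 at Mir24-2 and Mir3074-1 at Mir24-1.

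The hairpins are shown first, because the tables keep reads that mapped to several places apart from the genes' counts, and the members resemble each other in pairs. All 6 were found in the RefSeq miRNA table (GRCm38.p6). Capitals mark the longest stretch that a hairpin shares with its paralog, the matching gene of the other cluster.
Mir23a: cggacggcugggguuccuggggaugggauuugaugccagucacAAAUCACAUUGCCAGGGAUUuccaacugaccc
Mir23b: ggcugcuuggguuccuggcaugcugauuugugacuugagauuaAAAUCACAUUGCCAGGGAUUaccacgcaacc
Mir27a: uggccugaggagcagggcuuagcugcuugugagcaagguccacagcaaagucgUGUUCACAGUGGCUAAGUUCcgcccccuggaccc
Mir27b: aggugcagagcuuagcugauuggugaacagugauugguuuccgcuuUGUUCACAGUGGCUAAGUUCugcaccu
Mir24-2: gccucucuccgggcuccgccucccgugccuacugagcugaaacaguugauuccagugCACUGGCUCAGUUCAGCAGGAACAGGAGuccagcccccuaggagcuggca
Mir24-1: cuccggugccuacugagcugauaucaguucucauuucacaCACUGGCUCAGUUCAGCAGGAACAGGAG
The shared stretch was 20 bases in the miR-23 pair, 20 bases in the miR-27 pair and 28 bases in the miR-24 pair. Members that are not paralogs shared at most 8 bases. Among the 1005 hairpins of the table, the paralog was the only other hairpin that shared at least 20 bases with any of the 6.

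The mature strands show where in a read the paralogs part. They are given with the seed in capitals, and the table held 11 entries for the 6 genes, without miR-23b-3p.
miR-23a-3p: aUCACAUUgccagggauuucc
miR-27a-3p: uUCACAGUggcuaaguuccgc
miR-27b-3p: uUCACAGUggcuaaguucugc
miR-24-3p: uGGCUCAGuucagcaggaacag
miR-24-2-5p: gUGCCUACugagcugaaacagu
miR-24-1-5p: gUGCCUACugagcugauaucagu
miR-23a-5p: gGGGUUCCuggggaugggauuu
miR-23b-5p: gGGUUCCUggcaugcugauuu
miR-27a-5p: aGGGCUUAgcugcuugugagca
miR-27b-5p: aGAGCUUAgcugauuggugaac
miR-27a-3p and miR-27b-3p share their seed and differ at 1 position, C19U, counted from 1 at the 5′ end with the miR-27a-3p base first. The first 18 bases of miR-23a-3p also occur in the Mir23b hairpin, and a read that starts at the 5′ end of this strand needs at least 19 bases to match no other hairpin of the table. For miR-27a-3p and miR-27b-3p it is also 19 bases. miR-24-3p is the same 22 bases at both loci, so a read of that strand matches both at any length. The 5p strands of the miR-24 genes have 1 seed in common and part at base 17, those of miR-27 part at base 3, and those of miR-23 at base 4. These positions are counted from the annotated starts. The first 10 bases of miR-23b-5p also occur in the Mir23a hairpin. A read from the start of either miR-23 5p strand needs at least 11 bases to match no other hairpin of the table. Of the 8 different seeds of these 11 entries, 7 were found in no gene of the table outside the clusters. The exception, the miR-24-3p seed, also occurs in Mir5124b, Mir6369, Mir6410 and Mir6413, which had 0 counts in both libraries.

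The libraries held 5397603 (replicate 1) and 3029977 (replicate 2) reads on the sense strand of miRNA genes, out of 13973580 and 7530945 reads. Levels are given as CPM, the reads of a gene per 1000000 sense miRNA reads, so 1 read came to 0.185 CPM in the first library and 0.330 CPM in the second. Reads that mapped to several places made up 28.5% of all reads in replicate 1 and 30.6% in replicate 2 and form an entry of their own in the tables. All 6 members had at least 10 counts in both libraries, as did 339 of the 2202 genes.

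Together the members held 6.73% of the sense miRNA reads in replicate 1 (95% Wilson interval 6.71 to 6.75%) and 9.36% in replicate 2 (9.33 to 9.40%), a mean of 8.05% ± 1.86 (SD, n = 2). The miR-23 genes gave most of this. Mir23a and Mir23b made up 90.0% of the members' reads in replicate 1 and 93.0% in replicate 2. Mir27a and Mir27b gave 9.50% in replicate 1 and 6.81% in replicate 2, and the miR-24 genes gave 0.474% and 0.167%.

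Mir23a, the first gene of the chromosome 8 cluster, had 177219 reads in replicate 1 and 146249 in replicate 2. Its level in replicate 1 was 32833 CPM, with a 95% Wilson interval of 32683 to 32984. In replicate 2 it was 48267 CPM (48027 to 48509), which gave 40550 ± 10914 CPM (SD, n = 2). It ranked 8 of 2202 genes by its mean. The intervals, here and below, cover counting error only.

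Mir23b, the first gene of the chromosome 13 cluster, had 149859 and 117685 reads in replicates 1 and 2. Its level was 27764 CPM in replicate 1 and 38840 CPM in replicate 2, or 33302 ± 7832 CPM, and it ranked 10. The levels of Mir23a and Mir23b overlapped between libraries, since Mir23b in replicate 2 exceeded Mir23a in replicate 1. The genes next to them by mean level were Mirlet7i and Mir143 above Mir23a, Mir26b between the members, and Mir21a and Mir22 below Mir23b. The means of Mirlet7i (41501 ± 3175 CPM), Mir143 (41485 ± 17671 CPM) and Mir26b (34227 ± 5672 CPM) lay within 1 SD of the mean of Mir23a. Those of Mir26b, Mir21a (26772 ± 11071 CPM) and Mir22 (26649 ± 22145 CPM) lay within 1 SD of the mean of Mir23b.

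The miR-27 genes came next. Mir27a, on chromosome 8, had 5563 reads in replicate 1 and 3369 in replicate 2. That was 1031 CPM (interval 1004 to 1058) in the first library and 1112 CPM (1075 to 1150) in the second, or 1071 ± 57.5 CPM, rank 71. Mir27b, on chromosome 13, had 28968 and 15945 reads. It stood at 5367 CPM in the first library (interval 5306 to 5429) and 5262 CPM in the second (interval 5182 to 5345), or 5315 ± 73.8 CPM, rank 34. Both libraries of Mir27a lay below both of Mir27b. The intervals of the libraries overlapped for Mir27b and did not for Mir27a.

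The miR-24 genes were lowest. Mir24-2 had 1421 reads in replicate 1 and 379 in replicate 2, which gave 263 CPM (interval 250 to 277) in the first library and 125 CPM (113 to 138) in the second, or 194 ± 97.7 CPM, rank 145. Mir24-1 had 300 and 95 reads, which gave 55.6 CPM (49.6 to 62.2) in the first library and 31.4 CPM (25.7 to 38.3) in the second, or 43.5 ± 17.1 CPM, rank 218. Both genes were higher in replicate 1, with no overlap of the intervals. Reads of miR-24-3p that match both loci are not in these counts, so the values give no level for miR-24-3p. Reads that mapped to several places outnumbered the reads counted for the miR-24 genes 2315-fold in replicate 1 and 4857-fold in replicate 2. How many of them were miR-24-3p was not tested, and the tables do not separate the arms of a hairpin.

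**Figure D1:**
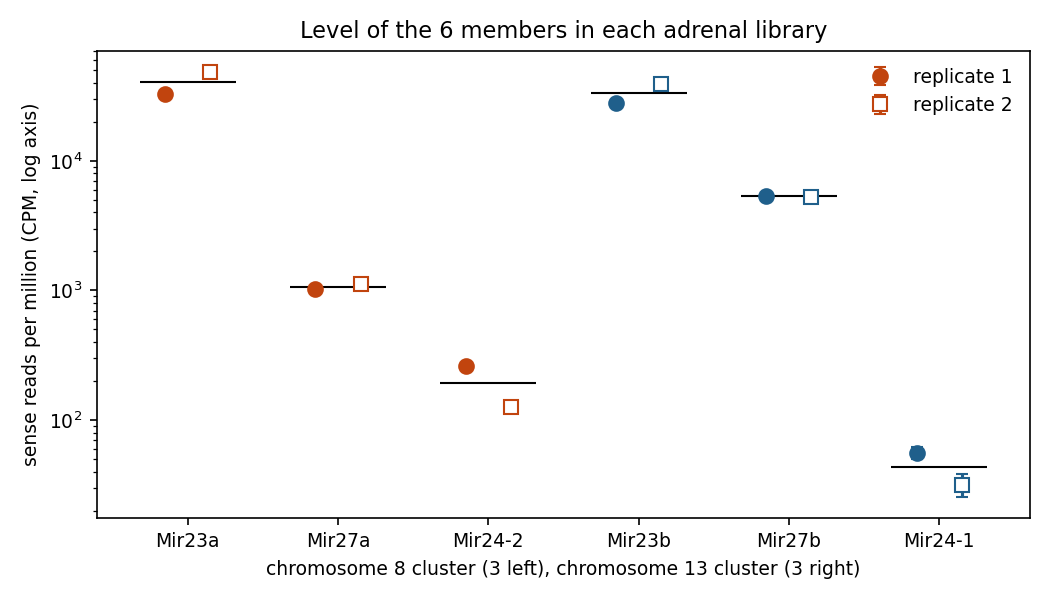
Level of each member in CPM on a log axis, with replicate 1 as filled circles and replicate 2 as open squares. Error bars are 95% Wilson intervals, smaller than most symbols, and black lines are means of the 2 libraries. Members run from 40550 CPM for Mir23a to 43.5 CPM for Mir24-1.

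The order of the members was the same in both libraries. By reads placed at 1 locus it ran from Mir23a through Mir23b, Mir27b, Mir27a and Mir24-2 to Mir24-1, and all 15 pairs of members kept their order. The pooled spread between libraries, a coefficient of variation of 41.6% over 434 genes, sets a limit of 2.26-fold for the mean levels of 2 genes. The limit takes the genes to vary independently between libraries. Of the 15 pairs, 14 differed by more than that, and Mir23a with Mir23b did not, although Mir23a was the higher of them within each library. The spread holds no bias that both libraries share, such as a ligation yield set by sequence, so these are orders of counted reads. It also does not hold the loss of miR-24-3p reads that match both loci, which both libraries share. Pairs with Mir24-2 or Mir24-1 can pass the limit through that loss, so they give no order of strand levels.

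Within each cluster the reads placed at 1 locus fell along the gene order, from miR-23 to miR-27 to miR-24. The last step leaves out miR-24-3p reads that match both loci, so it is no step in the level of that strand. Mir23a had 31.9 times the reads of Mir27a in replicate 1 and 43.4 times in replicate 2. The step was smaller on chromosome 13, where Mir23b had 5.17 times the reads of Mir27b in replicate 1 and 7.38 times in replicate 2. Mir27a had 3.91 times the reads of Mir24-2 in replicate 1 and 8.89 times in replicate 2, and Mir27b had 96.6 and 168 times the reads of Mir24-1. Mir23a therefore made up 96.9% ± 0.914 of its cluster's counts (SD, n = 2) and Mir23b 85.8% ± 3.07 of its own. Mir27a took 2.63% ± 0.547 of the chromosome 8 cluster, and Mir27b 14.0% ± 3.00 of the chromosome 13 cluster. Neither the miR-23 shares nor the miR-27 shares overlapped between the clusters.

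**Figure D2:**
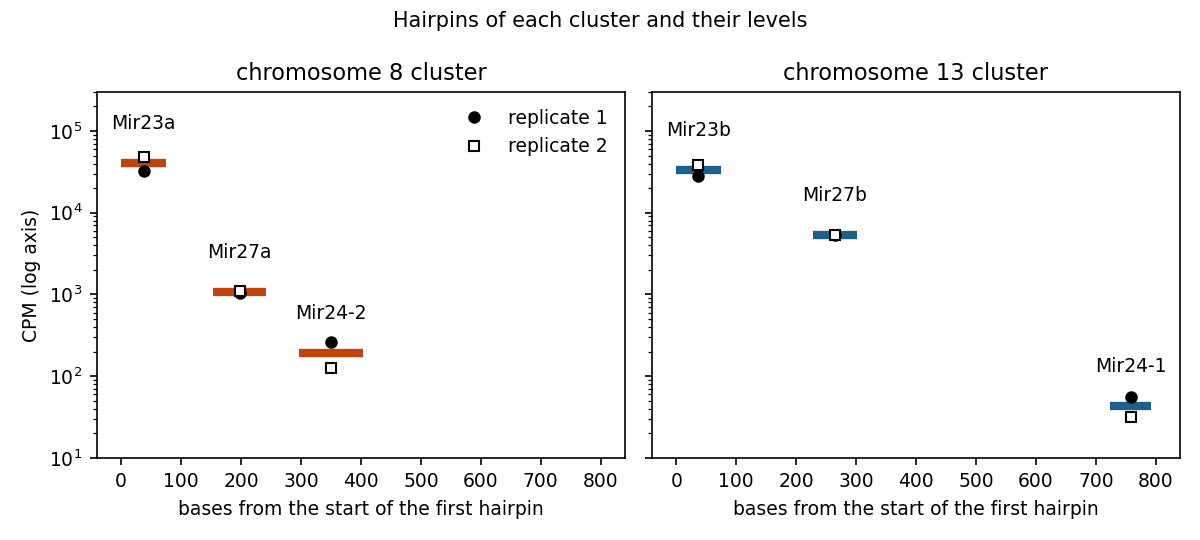
Position of each hairpin in bases from the start of the first one, against its level in CPM on a log axis, for the chromosome 8 cluster (left) and the chromosome 13 cluster (right). Coloured lines span the hairpins at their mean level, filled circles are replicate 1 and open squares replicate 2. Reads placed at 1 locus fall from the first to the third hairpin in both clusters, with miR-24-3p reads that match both loci left out at the third, and the clusters span 404 and 792 bases.

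By reads placed at 1 locus, the clusters as wholes were counted at nearly the same level. The sums leave out miR-24-3p reads that match both loci, so they give no level for all that a cluster makes. The chromosome 8 cluster held 184203 reads in replicate 1 and 149997 in replicate 2, against 179127 and 133725 for the chromosome 13 cluster. As a share of sense miRNA reads this was 4.18% ± 1.09 for the chromosome 8 cluster and 3.87% ± 0.774 for the chromosome 13 cluster. The ratio of chromosome 8 over chromosome 13 was 1.03 in replicate 1 (95% exact binomial interval 1.02 to 1.04) and 1.12 in replicate 2 (1.11 to 1.13), a mean log2 ratio of 0.10 ± 0.09 (SD, n = 2). It lay above 1 in both libraries but within the 2.26-fold limit. An exact two-sided permutation test that flips the sign of each library's log2 ratio cannot go below 0.5 with n = 2, and it gave 0.5 for this ratio and for each of the 3 paralog ratios below.

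Most reads of both sums came from the miR-23 pair, and the paralogs did not all lean the same way. Mir23a was 1.18 times Mir23b in replicate 1 (95% exact binomial interval 1.17 to 1.19) and 1.24 times in replicate 2 (1.23 to 1.25). The mean log2 ratio was 0.28 ± 0.05 (SD, n = 2). It was inside the limit for independently varying genes, while both counting intervals lay above 1. Without the miR-23 pair the log2 ratio of chromosome 8 over chromosome 13 was -2.08, a setting chosen after these values were seen.

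In the miR-27 pair the chromosome 13 gene was higher. Mir27a was 0.192 times Mir27b in replicate 1 (95% exact binomial interval 0.187 to 0.198) and 0.211 times in replicate 2 (0.204 to 0.219), a mean log2 ratio of -2.31 ± 0.10. Mir27b thus exceeded Mir27a by 4.96-fold, more than the limit. The mature 3p strands of this pair differ by the single base given above, and the stretch shared by the hairpins is 20 bases, as long as in the miR-23 pair. How many reads of either pair were left out because they match both paralogs was not tested.

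In the miR-24 pair the chromosome 8 gene was higher. Mir24-2 was 4.74 times Mir24-1 in replicate 1 (95% exact binomial interval 4.18 to 5.38) and 3.99 times in replicate 2 (3.18 to 5.05), a mean log2 ratio of 2.12 ± 0.18. The difference was 4.34-fold by the mean and past the limit. The intervals of the libraries overlap, so a difference between them was not detectable at this depth. It holds for reads that could be placed at 1 locus and says nothing of how much miR-24-3p each locus gave.

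**Figure D3:**
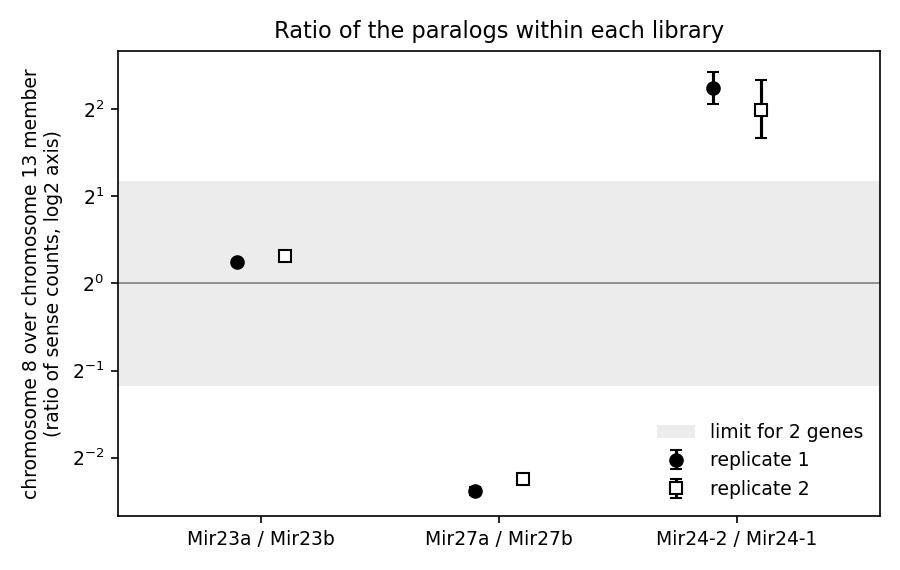
Ratio of the chromosome 8 member over its chromosome 13 paralog in reads of the same library, on a log2 axis, with 95% exact binomial intervals. Filled circles are replicate 1 and open squares replicate 2. The grey band is the 2.26-fold limit from the pooled spread between libraries. Mir23a over Mir23b lies inside the band, Mir27a over Mir27b below it and Mir24-2 over Mir24-1 above it.

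The miR-24 genes had counts only where strand was used. Counted without strand, Mir24-2 and Mir24-1 had 0 reads in both libraries, as did Mir3074-2 and Mir3074-1. The tables list 1207168 reads in replicate 1 and 516801 in replicate 2 as ambiguous in that column, and 0 in the sense column. The other 4 members had the same counts with and without strand, and 0 reads on the opposite strand. On the strand of Mir3074-1, opposite to Mir24-1, lay 56 reads in replicate 1 and 23 in replicate 2, so Mir24-1 had 5.36 and 4.13 times as many. On the strand of Mir3074-2, opposite to Mir24-2, lay 1 and 2 reads, below the 3 reads that a count of 0 allows.

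The libraries were compared to ask how reproducible the members are. Reads of each gene were set against the sizes of the libraries, scaled by edgeR's TMM, by the exact binomial test (two-sided). Its p-values were adjusted by Benjamini-Hochberg over the 434 genes that had 10 counts or more when the libraries were added. The test takes counting error alone as the error, and it compares these libraries, not conditions. At an adjusted p under 0.05 it called 6 of the 6 members, where it called 254 of all 434 genes (58.5%). It called 2 members higher in replicate 1, where 30.2% of all genes were, and 4 higher in replicate 2, where 28.3% were. Calls by this test depend on depth. With testing limited to genes of at least 100 counts, which all members had, it called 230 of 284 genes and 6 of 6 members. The median size of the ratio was 1.57-fold over the members and 1.49-fold over all genes. With the spread over all genes as the error (edgeR's exact negative binomial test, common dispersion), 0 of 434 genes were called (0%), members included. That spread was estimated from the same 2 libraries that were compared. Few calls are therefore built in, and the result cannot show that the members are reproducible. At an unadjusted p under 0.05 the negative binomial test had 24 of the 434 genes, and 0 of them were members. So small a share says little of 6 members.

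The miR-23 genes were both higher in replicate 2. The log2 ratio of replicate 1 over replicate 2 was -0.86 for Mir23a and -0.79 for Mir23b, or 1.81-fold and 1.72-fold, with binomial p-values too small to be written as a number. The miR-27 genes were also higher in replicate 2 by this scaling, with log2 ratios of -0.41 for Mir27a (exact binomial test, adjusted p = 2.34e-37) and -0.27 for Mir27b (adjusted p = 5.11e-80). Scaled by total counts, Mir27b turned to 0.028 and lost its call (exact binomial test, adjusted p = 0.0720).

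The miR-24 genes were both higher in replicate 1. Their log2 ratios were 0.77 for Mir24-2 (exact binomial test, adjusted p = 1.49e-21) and 0.52 for Mir24-1 (adjusted p = 0.00330). Scaling by total counts moved all ratios up by 0.30. The calls then split into 189 for replicate 1 and 83 for replicate 2, against 131 and 123 with TMM. It left 5 of 6 members called, 2 higher in replicate 1 and 3 higher in replicate 2.

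**Figure D4:**
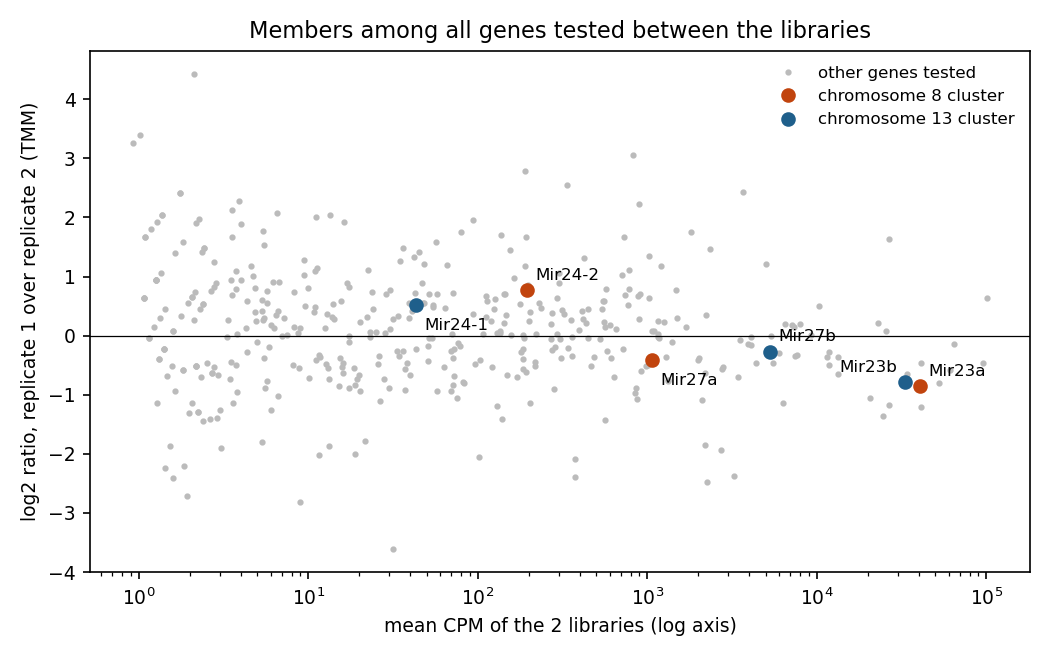
Log2 ratio of replicate 1 over replicate 2 with TMM scaling against mean CPM on a log axis, for all 434 genes tested. Grey points are other genes, orange the chromosome 8 members and blue the chromosome 13 members. Mir23a and Mir23b lie at -0.86 and -0.79, and Mir24-2 and Mir24-1 at 0.77 and 0.52.

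By this ratio each member lay nearer to its paralog than to its neighbours on the chromosome. The difference in log2 ratio between paralogs was 0.07 for miR-23, 0.14 for miR-27 and 0.25 for miR-24. Between members of the same cluster it ran from 0.45 (Mir23a and Mir27a) to 1.63 (Mir23a and Mir24-2), with a median of 0.99 over the 6 pairs. The 6 remaining pairs of members ran from 0.37 to 1.56. The median over all 40186 pairs of the 284 genes with at least 100 counts was 0.77. The differences do not depend on how the libraries are scaled. The ranges of the 3 paralog pairs and the 6 cluster pairs do not overlap, which is a description of 2 libraries with no test. Hairpin GC content differed between the paralogs, at 56.0% for Mir23a and 48.6% for Mir23b, 59.8% for Mir27a and 47.9% for Mir27b, and 61.7% for Mir24-2 and 51.5% for Mir24-1. These values are of whole hairpins, not of the mature strands, which are more alike within the miR-27 and miR-24 pairs. The part of GC content in the ratios was not tested.

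**Figure D5:**
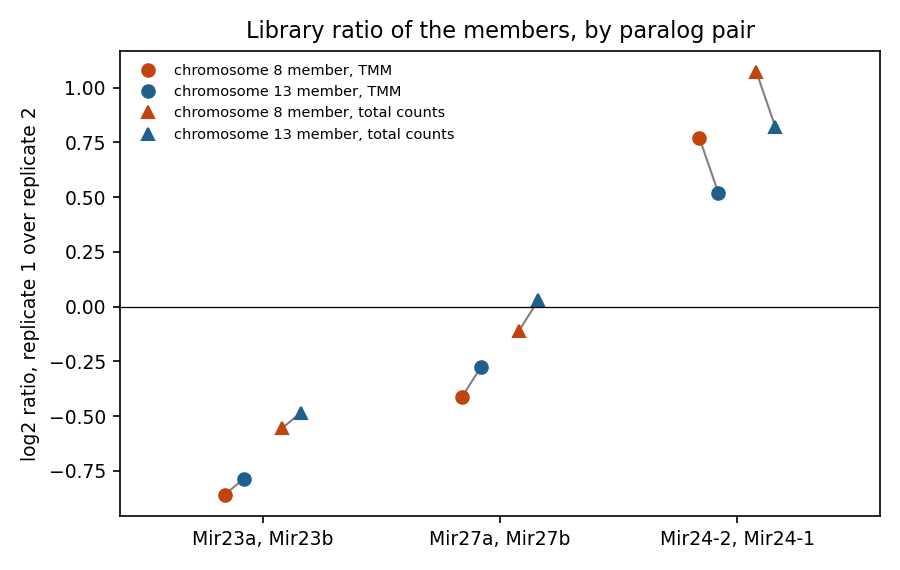
Log2 ratio of replicate 1 over replicate 2 for each paralog pair, with the chromosome 8 member in orange left of the chromosome 13 member in blue. Circles use TMM scaling and triangles total counts, and grey lines join paralogs. The pairs are ordered from miR-23 to miR-24 and stay together under both scalings, which differ by 0.30.

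Among the 112 genes with at least 1000 counts in both libraries, those with a ratio nearest to each member were also listed, a likeness over 2 libraries only. Mir10a (log2 ratio -0.80) was among the 3 nearest to both Mir23a and Mir23b. The others were Mir376a and Mir30b for Mir23a, and Mir708 and Mir20a for Mir23b. Nearest to Mir27a were Mir872, Mir382 and Mir361, and nearest to Mir27b were Mir127, Mir342 and Mir411. Nearest to Mir24-2 were Mir328, Mir497 and Mir92-1, and nearest to Mir24-1 were Mir34a, Mir30d and Mir154.

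Genes linked to blood vessels, where the clusters are best known, differed between the libraries in both directions. Of 10 such genes, 5 were called higher in replicate 1 and 4 higher in replicate 2 by the exact binomial test, where 30.2% and 28.3% of all 434 genes were. They had a median log2 ratio of 0.02 against 0.06 over all genes. Mir126a, the main miRNA of endothelial cells, had 133209 CPM in replicate 1 and 69285 CPM in replicate 2, opposite in direction to Mir23a and Mir23b. Mir221 and Mir222, which act in vessel walls, had 640 and 130 CPM in replicate 1 and 1090 and 167 CPM in replicate 2, the direction of the miR-23 genes. In bulk tissue, fewer cells of a type and less RNA per cell cannot be told apart.

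Markers of other cell types also differed between the libraries. The smooth muscle and pericyte genes Mir143 and Mir145a together had 30240 CPM in the first library and 59237 CPM in the second, and both were called higher in replicate 2. The endothelial genes Mir126a and Mir126b summed to 133214 and 69289 CPM, with Mir126a called higher in replicate 1 and Mir126b not called. The 5 neuroendocrine genes, led by Mir375, summed to 32103 and 25898 CPM, with 1 called higher in replicate 1 and 2 higher in replicate 2. In the white-cell list 4 of 4 genes were called higher in replicate 2 (sums of 1345 and 2049 CPM), and in the red-cell list 3 of 3 were called higher in replicate 1 (1210 and 576 CPM). Over all genes, 28.3% were called higher in replicate 2 and 30.2% higher in replicate 1. These calls use TMM. Scaled by total counts, Mir155 of the white-cell list lost its call (log2 ratio -0.038, exact binomial test, adjusted p = 0.565). The other white-cell and red-cell genes kept theirs. Mir7-1 of the neuroendocrine list gained a call by that scaling (log2 ratio 0.341, exact binomial test, adjusted p = 0.000424). All white-cell and red-cell genes had at least 100 counts. Of the 284 genes with that depth, 99 were called higher in replicate 2 and 131 higher in replicate 1.

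In the remaining lists most reads placed at 1 locus came from 1 gene each. In any list, a low count or a 0 need not mean a low level. A gene with close copies elsewhere can lose reads to the entry for several matches. How many reads the list genes lost in this way was not tested. The hepatocyte gene Mir122 had 1503 CPM in replicate 1 and 146 CPM in replicate 2 and was called. The 4 fibroblast genes summed to 1549 and 288 CPM, nearly all from Mir214 (1528 and 264 CPM), which was called higher in replicate 1. Mir199b was called higher in replicate 2, Mir199a-2 was not called, and Mir199a-1 had 0 counts in both libraries. The 4 skin and epithelial genes summed to 852 and 3720 CPM, nearly all from Mir203 (822 and 3691 CPM). Mir203 and Mir141 were called higher in replicate 2, Mir200c was not called, and Mir205, with 7 reads in replicate 1 and 1 in replicate 2, was not tested. The 5 striated muscle genes summed to 476 and 495 CPM, nearly all from Mir206, which was called higher in replicate 2, with 2 of the 5 at 0 counts in both libraries. With total counts as the scale, Mir206 lost its call (log2 ratio -0.061, exact binomial test, adjusted p = 0.259). The part of these cell types in the members' ratios was not tested, and no list holds a marker that defines the adrenal cortex.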

How the data were processed

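The authors deposited 1 table per library, with raw counts of reads for each miRNA gene in 3 columns that no header names. Per the notes the authors deposited with each library, reads were placed on mm10 with GENCODE M21; for the aligner, counter and trimming, no name is given in the sources used here. Each column adds up to the same total of reads, and the columns were taken as unstranded, sense and antisense counts. The sense counts were used, and 4 summary entries that name no gene were left out (unmapped reads took 26.0% in replicate 1 and 22.3% in replicate 2, reads outside miRNA genes 6.88% and 6.86%). All 2202 identifiers matched GENCODE M21. No value in the tables is normalised.

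CPM, Wilson and exact binomial 95% intervals, and log2 ratios with a prior of 0.5 counts were computed (Python 3.11.15, pandas 2.3.3, scipy 1.17.1, statsmodels 0.14.6). TMM sizes and the common dispersion came from edgeR 4.0.16 and alternative size factors from DESeq2 1.42.0 (R 4.3.3). The limit for 2 genes is the exponential of 1.96 times the pooled coefficient of variation. The binomial step was tested on simulated counts with counting error only, so that check does not cover the spread between these libraries. Genes were named by rule: the members, genes opposite to them or sharing 20 bases or a seed with them, the 3 nearest in library ratio, the 2 ranked next above and below each miR-23 gene, and 10 lists. The members, lists and tests were chosen with earlier results of these data known.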

Additional observations from a re-analysis of the deposited data

Results flagged for a closer look

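Reads on the strand opposite to Mir24-1, which the comparisons of the members do not use, were above the 3 reads that a count of 0 allows. There were 56 such reads in replicate 1 and 23 in replicate 2, all counted for Mir3074-1 (10.4 and 7.59 CPM). Mir3074-1 was not called between the libraries (log2 ratio 0.13, exact binomial test, adjusted p = 0.786). With 1 group of 2 libraries, no sample could be examined as an outlier and no effects could be compared between groups.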

How the results depend on the processing

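The ratios between paralogs and between clusters kept their sign and moved by less than 1 SD with a pseudocount of 5 and with counts made without strand. The exception was a setting chosen after seeing the data, the cluster ratio without the miR-23 pair, which turned to -2.08 against 0.10. The miR-23 and miR-27 genes have the same counts with and without strand, so that setting could not move their ratios. In the cluster ratio it only took out the miR-24 genes, which gave 0.097 on the log2 scale. It is therefore no check of these ratios. With replicate 1 or replicate 2 left out, the cluster ratio was 0.17 or 0.04 on the log2 scale, and the members' share was 9.36% or 6.73%. With n = 2 such values are those of the other library and say nothing of stability. That share moved to 3.18% of all reads and to 9.95% of counts made without strand. Without strand the miRNA genes held 4190963 reads in replicate 1 and 2513602 in replicate 2, against 5397603 and 3029977 with strand. No member had more reads without strand than with it. For the miR-24 pair, counts made without strand gave no ratio, since both genes are at 0.

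With a minimum of 2-fold, 85 genes and 0 members were called between the libraries, and with the common dispersion as the error 0 genes and 0 members. The common dispersion comes from the compared libraries themselves, so few calls are built into that setting. The other 6 alternatives called between 230 and 272 genes, out of different numbers tested, with 248 of 769 called without a minimum and 230 of 284 with a minimum of 100 counts. They called 5 or 6 of 6 members, and 4 of 4 that had counts without strand. The log2 library ratio of Mir27b turned to 0.028 with total counts, and the ratios of the other 5 members kept their direction and call with total counts and with DESeq2 size factors. The causes were not tested. Depth limits Mir24-1 most, with 95 reads in replicate 2. No paired analysis was possible because the study has 1 group, so replicate numbers link no samples across groups. Members were compared within each library.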
